A study of Mus musculus with 6 samples.

Results

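The 31 genes described here carry cholesterol through a T helper 17 (Th17) cell: 18 encode enzymes of sterol synthesis, 5 control the SREBP transcription factors, 5 act in sterol uptake, transport and storage, and 3 belong to liver X receptor (LXR) signalling and efflux. They were taken by gene symbol from a list of the pathway and make up 31 of the 54532 genes in the deposited count table. All 31 were among the 12873 genes with enough reads to be tested.

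RNA sequencing was done on Th17 cells differentiated in culture from GOT1-/- mice and from wild-type (WT) mice, with 3 libraries per genotype. GOT1 is the cytosolic enzyme that exchanges amino groups between aspartate and glutamate. The GOT1-/- mice lacked the gene in T cells only, and neither the Cre line nor the deleted part of the gene is given in the sources used here. Both groups were C57BL/6, 6 to 10 weeks old and, per the labels, male or female. Xist had 1550 to 3633 counts in GOT1-/- and 3722 to 3778 counts in WT, and the Y-linked gene Ddx3y had 0 in all 6 libraries. Naive CD4+CD25-CD62L+CD44- T cells were sorted from both, and the sorted cells were activated with plate-bound anti-CD3 (5 µg/ml) and soluble anti-CD28 (2 µg/ml). Both groups received TGFβ (2.5 ng/ml) and 10 ng/ml of each of IL-1β, IL-6 and IL-23, together with blocking antibodies to IFNγ and IL-4 (each 2 µg/ml). Medium was renewed on day 2, and RNA was collected on day 4. Poly-A selected libraries were made from 1 µg of RNA each with a NEBNext Ultra kit. Nothing in the labels says that the replicates are different mice or cultures; the p-values therefore reflect the spread among these 6 libraries, which may be technical.

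Cells make cholesterol from acetyl-CoA through mevalonate, farnesyl diphosphate, squalene and lanosterol. SCAP carries the SREBP factors to the Golgi when sterols are scarce, INSIG proteins hold them back when sterols are plentiful, and LXR turns on export when oxysterols accumulate. Activated T cells draw on this pathway for the membranes they need to grow and divide.

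Library totals were 17557436 to 22541410 counts in GOT1-/- and 16463752 to 21239075 counts in WT. Levels are given as CPM, counts per 1000000 on library sizes scaled by TMM. For a gene with 0 counts the upper limit was set at 3 counts, or 0.133 to 0.182 CPM, for counting error only. The targeted gene, Got1, averaged 16.2 ± 1.25 CPM in GOT1-/- and 168 ± 4.59 CPM in WT (SD, n = 3 each), 10.4-fold lower in GOT1-/- (log2 fold change -3.38, adjusted p = 2.15e-14). Mitochondrially encoded genes took 1.1% to 1.14% of counts in GOT1-/- and 1.56% to 1.88% in WT, and their part in the results was not tested. The T cell genes Cd4 and Cd3e were present in every library, at 641 ± 9.88 and 272 ± 21.7 CPM in GOT1-/- and 681 ± 9.46 and 334 ± 21.2 CPM in WT. Cd3e was called lower in GOT1-/- (log2 fold change -0.30, adjusted p = 0.00358), and Cd4 was not called (-0.09, adjusted p = 0.271). Of all genes tested, 22.9% were called higher and 21.0% lower in GOT1-/-, and this is the background for every count of the main comparison below. Counts under other settings have other backgrounds. Under the 15 alternative settings, 2267 to 3245 genes were called higher and 2159 to 2802 lower, of 11631 (stricter filter) to 23411 (no filter) genes tested. A call is an adjusted p under 0.05 in edgeR's quasi-likelihood test, adjusted over all genes by the Benjamini-Hochberg method. All adjusted p-values come from this test unless another is named, and fold changes are GOT1-/- over WT. These are bulk samples, in which fewer cells of a type and less RNA per cell cannot be told apart.

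Of the 31 genes, 15 were called higher in GOT1-/- cells, 3 were called lower and 13 were not called. The higher genes were 10 of the 18 sterol synthesis enzymes, with Scap and Insig2, the sterol carriers Stard4 and Npc2, and the LXR gene Nr1h2. The lower genes were Mylip, Abca1 and Soat1. In 18 of the 31 genes all GOT1-/- libraries lay above all WT libraries, which held for 27.7% of all genes tested, and in 4 they lay below, which held for 25.8%. The median log2 fold change of the 31 genes was 0.20, against 0.009 for all genes tested. Fold changes over all tested genes followed gene length (Spearman's rho -0.318, across 12873 genes) and GC content (0.306, across 12863 genes), both correlations across genes, which are not independent replicates. The 31 genes had a median length of 4594 bp and a median GC content of 49.6%, against 4121 bp and 49.6% for all genes tested. After a correction for length 15 of the 31 were called higher and 2 lower, against 2708 and 2528 of all 12873 genes. After a correction for length and GC content 18 of the 31 were higher and 3 lower, against 2763 and 2595 of all 12863 genes.

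**Figure D1:**
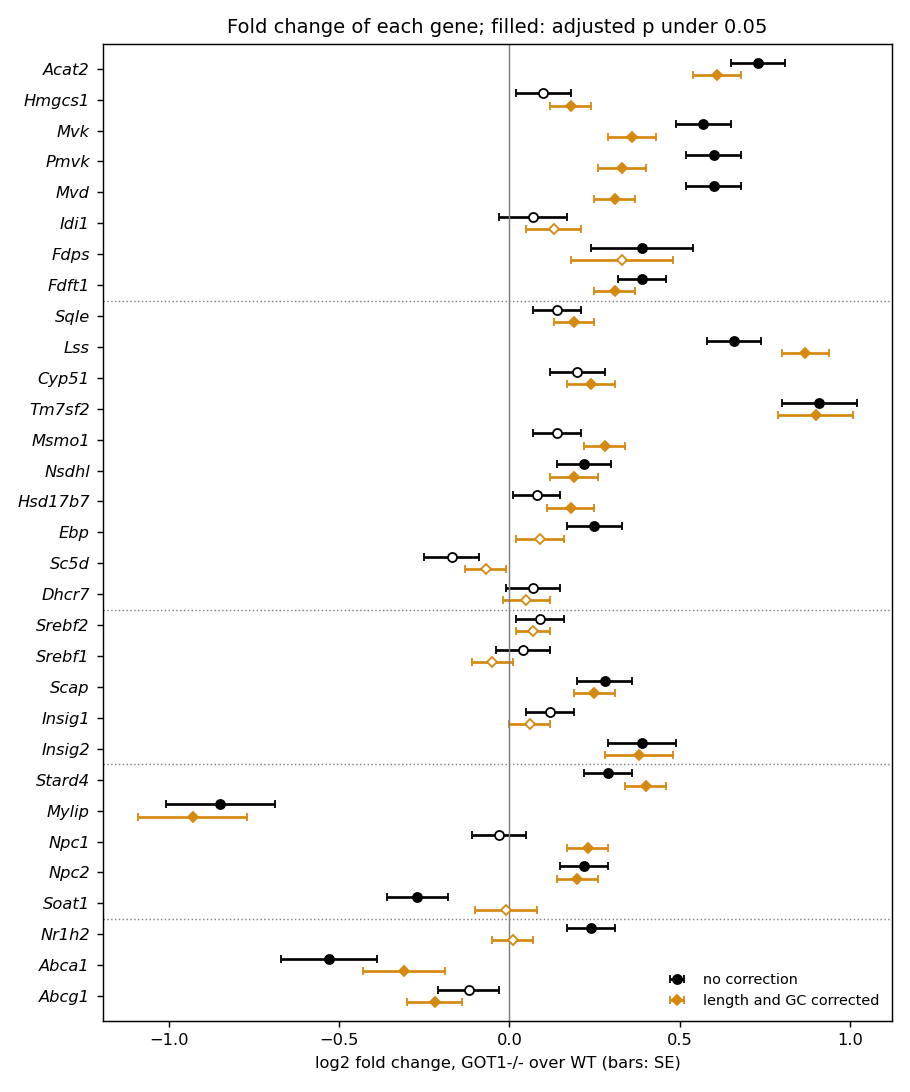
Log2 fold change (GOT1-/- over WT) of the 31 genes in pathway order from top to bottom, with bars of 1 SE, without a correction (circles) and after the length and GC correction (diamonds). Filled symbols mark calls, and Acat2, Lss and Tm7sf2 lie at 0.73, 0.66 and 0.91 uncorrected, and Mylip lies at -0.85.

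Of the genes for the steps from acetyl-CoA to squalene, 6 of 8 were called higher and none lower, with a median log2 fold change of 0.48. Acat2 (ENSMUSG00000023832; chromosome 17, 12942890 to 12960747, minus strand, GRCm38), the cytosolic thiolase that joins acetyl-CoA units, had 127, 147 and 144 CPM in GOT1-/- replicates 1 to 3, against 92, 76.5 and 82.8 CPM in WT replicates 1 to 3. The groups did not overlap. Acat2 averaged 139 ± 10.8 CPM in GOT1-/- and 83.8 ± 7.8 CPM in WT (SD, n = 3 each), 1.66-fold higher (log2 fold change 0.73, SE 0.08, adjusted p = 3.32e-06). Its neighbouring family member Acat3, which may share reads with it, had 0.772, 0.576 and 0.992 CPM in GOT1-/- and 1.21, 1.78 and 1.33 CPM in WT and was called lower (log2 fold change -0.91, adjusted p = 0.0318).

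The 3 kinase and decarboxylase steps that follow mevalonate had log2 fold changes between 0.57 and 0.60. Mvk, mevalonate kinase, had 38.1, 38.8 and 39.5 CPM in GOT1-/- and 25.8, 26.8 and 25.5 CPM in WT. Libraries of each genotype lay close to their mean, and the genotypes were far apart relative to that spread (log2 fold change 0.57, SE 0.08, adjusted p = 2.78e-05). Pmvk, phosphomevalonate kinase, had 49.2, 56.5 and 54.8 CPM in GOT1-/- and 37.8, 34.3 and 33.7 CPM in WT (0.60, SE 0.08, adjusted p = 2.89e-05). Mvd, the decarboxylase that makes isopentenyl diphosphate, had 135, 143 and 131 CPM in GOT1-/- and 93.9, 95.4 and 81.6 CPM in WT (0.60, SE 0.08, adjusted p = 1.09e-05). None of these 3 genes had overlapping groups. After the length and GC correction they remained called, with log2 fold changes of 0.36 (Mvk), 0.33 (Pmvk) and 0.31 (Mvd).

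Hmgcs1 and Idi1 stood on either side of these genes in the pathway and were not called. Hmgcs1, HMG-CoA synthase, had 261, 275 and 316 CPM in GOT1-/- and 244, 264 and 288 CPM in WT, and the groups overlapped (log2 fold change 0.10, SE 0.08, adjusted p = 0.338). It was called higher only after the length and GC correction (0.18, adjusted p = 0.0273). Idi1, which isomerises isopentenyl diphosphate, had 69.9, 72.7 and 82.3 CPM in GOT1-/- and 62.4, 67.2 and 84.5 CPM in WT (0.07, SE 0.10, adjusted p = 0.59). In both genes replicate 3 was the highest library of its genotype.

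The last genes of this stretch make and condense farnesyl diphosphate. Fdft1, squalene synthase, had 158, 160 and 176 CPM in GOT1-/- and 124, 123 and 129 CPM in WT, 1.31-fold higher with no overlap (log2 fold change 0.39, SE 0.07, adjusted p = 0.00023). It overlaps Ctsb on the opposite strand over 774 bp, a gene with a mean of 7407.2 counts, and the strand setting of the counting is not given, so the counts of Fdft1 are uncertain. Fdps, farnesyl diphosphate synthase, had 7.57, 7.45 and 6.95 CPM in GOT1-/- and 5.96, 4.69 and 6.22 CPM in WT. Its groups did not overlap, and its difference was close to the threshold (0.39, SE 0.15, adjusted p = 0.0434). The call was lost in DESeq2 (0.38, adjusted p = 0.0822), after the length correction (0.35, adjusted p = 0.0667) and after the length and GC correction (0.33, adjusted p = 0.0755). It was also lost without GOT1-/- replicate 1 (0.37, adjusted p = 0.0919), GOT1-/- replicate 2 (0.37, adjusted p = 0.121), WT replicate 1 (0.43, adjusted p = 0.0588) or WT replicate 2 (0.27, adjusted p = 0.194). Its log2 fold change lay between 0.27 and 0.45 over all 15 alternatives. Fdps also overlaps Gm43738, a coding gene on its own strand with a mean count of 0, over 7512 bp, so its level is uncertain.

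From squalene to cholesterol 4 of 10 genes were called higher and none lower, with a median log2 fold change of 0.17. Without GOT1-/- replicate 1 this was 6 of 10, against 5 of 8 before squalene. The genes of this stretch had a median length of 5325 bp, against 3090 bp before squalene. After the length and GC correction 7 of 10 were called higher (median 0.19), against 6 of 8 before squalene (median 0.32), and the difference between the stretches was not tested. The lead genes were Tm7sf2 and Lss. Lss (ENSMUSG00000033105; chromosome 10, 76531588 to 76557138, plus strand), which closes squalene epoxide into lanosterol, had 127, 136 and 132 CPM in GOT1-/- and 91.4, 78.9 and 80.1 CPM in WT. All GOT1-/- libraries lay above all WT libraries, a 1.58-fold difference (log2 fold change 0.66, SE 0.08, adjusted p = 3.60e-06). Tm7sf2, a sterol reductase acting after lanosterol, had 17.9, 19.7 and 20.4 CPM in GOT1-/- and 9.95, 9.28 and 11.9 CPM in WT. It was the gene with the largest increase of the 31, at 1.87-fold (0.91, SE 0.11, adjusted p = 9.66e-06). Tm7sf2 overlaps Vps51 on the same strand over 9356 bp (Vps51 had a mean of 43.8 counts), so its counts are uncertain.

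Nsdhl and Ebp, an oxidative demethylating enzyme and a sterol isomerase, were called at small sizes. Nsdhl had 65.8, 72.1 and 64.7 CPM in GOT1-/- and 61.8, 55.8 and 56.7 CPM in WT (log2 fold change 0.22, SE 0.08, adjusted p = 0.031). Ebp had 58.7, 60.2 and 66.4 CPM in GOT1-/- and 53.6, 52.6 and 49.6 CPM in WT (0.25, SE 0.08, adjusted p = 0.0161). In both genes the groups did not overlap, but neither call held in every alternative. Nsdhl was not called after correcting for length (0.10, adjusted p = 0.321) and without GOT1-/- replicate 2 (0.204), WT replicate 2 (0.13) or WT replicate 3 (0.0946). The call of Ebp was lost after both corrections (0.09, adjusted p = 0.315 for length and 0.295 for length and GC) and without GOT1-/- replicate 3 (0.0595) or WT replicate 3 (0.0663).

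The other 6 genes of this stretch were not called. Cyp51, the lanosterol demethylase, came closest, with 299, 336 and 364 CPM in GOT1-/- and 280, 273 and 316 CPM in WT (log2 fold change 0.20, SE 0.08, adjusted p = 0.0521), and its groups overlapped. Among the alternatives it was called higher in 7 of 15, with an adjusted p of 0.00706 without GOT1-/- replicate 1 and 0.0252 without WT replicate 3. It was not called without GOT1-/- replicate 2 (0.161), GOT1-/- replicate 3 (0.165), WT replicate 1 (0.18) or WT replicate 2 (0.209). Sqle, squalene epoxidase, had 142, 155 and 147 CPM in GOT1-/- and 129, 138 and 135 CPM in WT (0.14, adjusted p = 0.0979). Msmo1, a methyl sterol oxidase, had 148, 153 and 173 CPM in GOT1-/- and 141, 143 and 145 CPM in WT (0.14, adjusted p = 0.125). Every GOT1-/- library of Sqle and Msmo1 lay above every WT library, although neither passed the test. Both were called higher after either correction (adjusted p = 0.0285 and 0.0139 for Sqle, 0.0214 and 0.00184 for Msmo1), Sqle also with upper-quartile factors (0.044) and Msmo1 also without GOT1-/- replicate 1 (0.0471).

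Hsd17b7, a sterol ketone reductase, averaged 55.3 ± 1.68 CPM in GOT1-/- and 52.4 ± 1.77 CPM in WT (log2 fold change 0.08, adjusted p = 0.408), and was called higher only after the length and GC correction (0.18, adjusted p = 0.0392). Dhcr7, which makes cholesterol in the final step, averaged 71.5 ± 4.87 CPM in GOT1-/- and 68.1 ± 2.09 CPM in WT (0.07, adjusted p = 0.469). Sc5d, a sterol desaturase, was the only synthesis gene with a negative fold change in the main comparison. It had 92.7, 94.8 and 99.9 CPM in GOT1-/- and 105, 101 and 119 CPM in WT, so that all GOT1-/- libraries lay below all WT libraries (-0.17, SE 0.08, adjusted p = 0.0739). Without GOT1-/- replicate 3 it was called lower (-0.20, adjusted p = 0.0346).

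**Figure D2:**
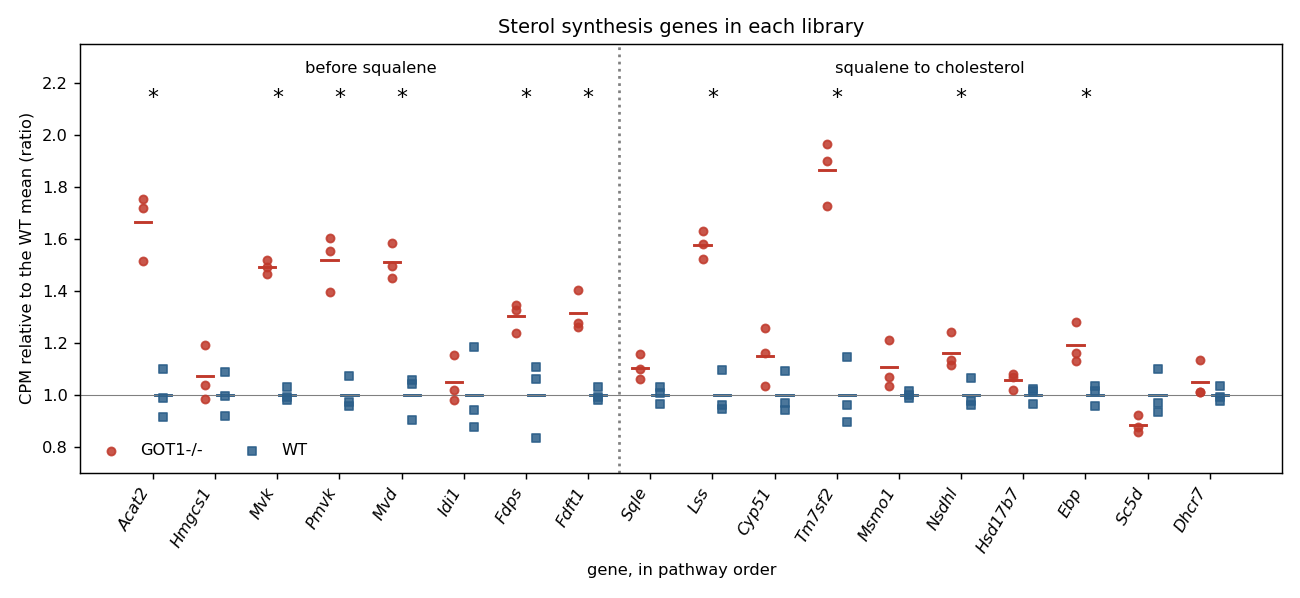
CPM of the 18 sterol synthesis genes in each library divided by the WT mean of that gene (a ratio, on an axis that does not start at 0), with 3 GOT1-/- libraries as circles on the left and 3 WT libraries as squares on the right of each gene, short lines at the means and asterisks at called genes. Acat2, Mvk, Pmvk, Mvd, Fdft1, Lss and Tm7sf2 show no overlap between genotypes, whereas Hmgcs1, Idi1, Cyp51, Hsd17b7 and Dhcr7 overlap.

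No synthesis gene was called lower by edgeR, DESeq2 or limma-voom, and 1, Sc5d, was lower at an unadjusted p under 0.05 in edgeR. The summed level of the 18 synthesis genes was 1922, 2061 and 2140 CPM in GOT1-/- replicates 1 to 3 and 1677, 1660 and 1769 CPM in WT replicates 1 to 3, with no overlap. The genes before squalene summed to 846, 900 and 951 CPM in GOT1-/- and 685, 692 and 732 CPM in WT. Those from squalene onwards summed to 1075, 1160 and 1190 CPM in GOT1-/- and 992, 968 and 1037 CPM in WT. Libraries labelled replicate 3 were the highest of their genotype in both genotypes for 7 of the 18 synthesis genes, or 38.9%, against 2194 of the 12873 genes tested.

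Promoter sequence was examined in RefSeq windows of 300 bases (250 before to 50 after each start, GRCm38.p6), which matched 25 of the 31 genes with 33 windows; Abcg1, Fdft1, Fdps, Npc1, Sqle and Stard4 had no window. Motifs were searched on both strands and may overlap each other. The sterol regulatory element (SRE, TCACCCCAC), where SREBP binds, was found in 1 of 33 windows (3.03%), that of Hmgcs1, against 0.551% of all 32851 windows and 0.56% of the 12142 windows of tested genes. With the fifth base free (TCACNCCAC) the same single window matched, against 1.24% of all windows. CCAAT, the box of NF-Y, which acts with SREBP, was in 22 of 33 windows (66.7%), against 37.4% of all windows and 37.9% of those of tested genes. The 22 windows belong to 21 genes, of which 9 were called higher, against 12 of all 25 genes with a window. The E-box CACGTG was in 7 windows (21.2%, against 7.15% of all and 10.0% of tested-gene windows), and the GC box GGGCGG in 27 (81.8%, against 35.7% and 62.4%). The LXR DR4 element, searched only as an exact spaced repeat of AGGTCA, was in 0 of 33 windows and in 0.0152% of all windows. It was also in 0 of the 12142 windows of tested genes, so this search could not set the members apart from other genes. Variant forms of the LXR element were not searched, and neither were further forms of the SRE. Absence of a match therefore does not show that a window lacks either element. A match is a description of these letters and not of a bound site.

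Sequences of 4 promoters are given, picked after the values were known: Hmgcs1, the single SRE match (not called), Mvk and Lss, which were called higher, and Abca1, which was called lower. They lie on GRCm38.p6 at chr13:119690101-119690400 (plus strand) for Hmgcs1, chr5:114444019-114444318 (plus) for Mvk, chr10:76531355-76531654 (plus) for Lss and chr4:53159846-53160145 (minus) for Abca1. Capitals mark, for Hmgcs1, the SRE and the CCAAT boxes on either strand (ATTGG is the reverse complement), for Mvk and Lss the CCAAT boxes, and for Abca1 the E-box.
Hmgcs1: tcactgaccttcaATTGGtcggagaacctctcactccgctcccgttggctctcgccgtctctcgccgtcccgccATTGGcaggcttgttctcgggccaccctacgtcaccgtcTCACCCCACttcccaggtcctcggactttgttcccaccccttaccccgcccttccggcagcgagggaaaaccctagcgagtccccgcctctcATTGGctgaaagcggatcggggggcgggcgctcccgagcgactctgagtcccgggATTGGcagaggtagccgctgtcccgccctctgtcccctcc
Mvk: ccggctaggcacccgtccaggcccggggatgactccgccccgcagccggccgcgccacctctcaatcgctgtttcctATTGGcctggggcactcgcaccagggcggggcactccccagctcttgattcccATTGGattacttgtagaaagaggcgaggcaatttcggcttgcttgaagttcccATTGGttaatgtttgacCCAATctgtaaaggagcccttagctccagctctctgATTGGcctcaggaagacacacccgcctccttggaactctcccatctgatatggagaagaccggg
Lss: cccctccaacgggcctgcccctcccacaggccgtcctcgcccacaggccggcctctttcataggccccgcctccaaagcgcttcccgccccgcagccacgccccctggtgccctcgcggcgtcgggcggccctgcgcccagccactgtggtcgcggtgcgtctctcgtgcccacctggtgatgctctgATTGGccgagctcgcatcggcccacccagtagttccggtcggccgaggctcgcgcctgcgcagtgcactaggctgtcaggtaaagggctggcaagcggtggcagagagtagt
Abca1: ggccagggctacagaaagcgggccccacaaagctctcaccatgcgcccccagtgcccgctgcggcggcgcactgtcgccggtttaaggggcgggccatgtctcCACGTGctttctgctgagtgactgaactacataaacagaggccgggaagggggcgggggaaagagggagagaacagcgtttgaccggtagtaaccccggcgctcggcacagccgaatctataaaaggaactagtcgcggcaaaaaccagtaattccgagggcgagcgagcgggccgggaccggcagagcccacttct
The SRE of Hmgcs1 starts 137 bases before the start site. The Mvk window holds 5 CCAAT boxes, and the Lss window holds 1, 62 bases before the start. The E-box of Abca1 starts 147 bases before its start. Variant LXR elements were not searched in the Abca1 window, so the lack of a mark does not show that none is present.

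Per kilobase of gene length, the level of the synthesis genes spanned a wide range. The highest was Cyp51 at 75.4 CPM per kb in GOT1-/- and 65.6 CPM per kb in WT, and the lowest was Fdps at 1.74 and 1.34 CPM per kb in GOT1-/- and WT. The level and rank of Fdps are uncertain because of its overlap with Gm43738 on the same strand. Mvd stood at 73.5 CPM per kb in GOT1-/- and 48.6 in WT, above Hmgcs1 (61.9 and 57.7) in GOT1-/- and below it in WT. Among all 31 genes Npc2 was highest, at 154 CPM per kb in GOT1-/- and 132 in WT. Mylip was lowest in GOT1-/- at 1.14 CPM per kb, against 2.05 in WT.

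**Figure D3:**
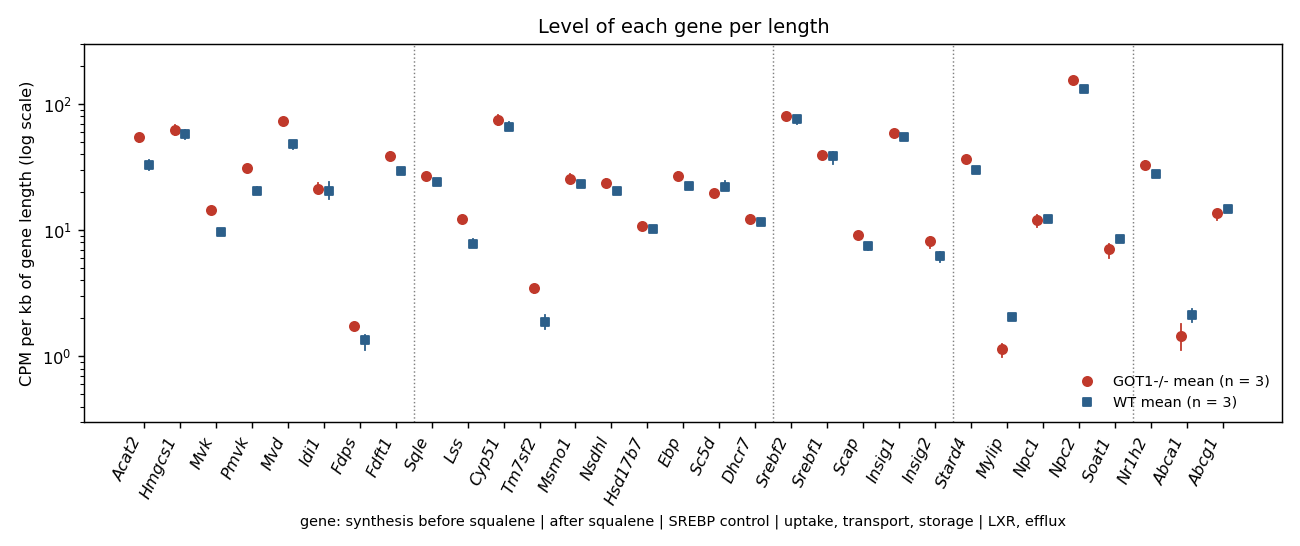
Level of each of the 31 genes per kilobase of deposited gene length (CPM per kb, log axis), as the mean of 3 libraries with lines from the lowest to the highest library, GOT1-/- left of WT, in pathway order. Npc2 is highest, at 154 CPM per kb in GOT1-/- and 132 in WT.

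The genes that set SREBP activity had 2 of 5 called higher and none lower, with a median log2 fold change of 0.12. The SREBP genes themselves were not called: Srebf2, whose product drives sterol synthesis genes, had 593, 608 and 541 CPM in GOT1-/- and 577, 558 and 497 CPM in WT (log2 fold change 0.09, SE 0.07, adjusted p = 0.318). Srebf1, which acts more on fatty acid synthesis, had 229, 233 and 211 CPM in GOT1-/- and 236, 228 and 189 CPM in WT (0.04, adjusted p = 0.703). Their groups overlapped. Srebf2 was called higher only after the length correction (0.21, adjusted p = 0.0201).

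Scap and Insig2 were called higher. Scap, the sterol sensor that escorts SREBP, had 69.2, 69.1 and 65.3 CPM in GOT1-/- and 57.5, 57.9 and 52 CPM in WT (log2 fold change 0.28, SE 0.08, adjusted p = 0.00634). Insig2, which retains SCAP in the endoplasmic reticulum, had 30, 25.2 and 30.9 CPM in GOT1-/- and 23.5, 22.6 and 19.4 CPM in WT (0.39, SE 0.10, adjusted p = 0.00563). Neither gene's groups overlapped. Insig1, its SREBP-induced relative, had 182, 192 and 177 CPM in GOT1-/- and 173, 168 and 167 CPM in WT, which also did not overlap, and was not called (0.12, SE 0.07, adjusted p = 0.162).

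Among the genes of uptake, transport and storage, 2 of 5 were higher, 2 lower and 1 not called. Mylip (ENSMUSG00000038175; chromosome 13, 45389742 to 45412022, plus strand), an LXR-induced ubiquitin ligase that degrades the LDL receptor, had 3.86, 3.19 and 4.03 CPM in GOT1-/- and 6.97, 6.28 and 6.64 CPM in WT, from 80, 72 and 69 counts in GOT1-/- and 138, 134 and 110 in WT. It was 1.8-fold lower in GOT1-/- (log2 fold change -0.85, SE 0.16, adjusted p = 0.000401), with no overlap, and was called lower in all 15 alternatives. Stard4, which carries cholesterol between membranes and is an SREBP target, had 216, 200 and 200 CPM in GOT1-/- and 178, 162 and 165 CPM in WT (0.29, SE 0.07, adjusted p = 0.00277). Npc2, the lysosomal protein that hands cholesterol to NPC1, had 805, 810 and 894 CPM in GOT1-/- and 733, 730 and 692 CPM in WT (0.22, SE 0.07, adjusted p = 0.0134). Every GOT1-/- library of these carriers exceeded every WT library.

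Npc1, the lysosomal membrane partner of NPC2, had 142, 132 and 113 CPM in GOT1-/- and 134, 133 and 129 CPM in WT, and its groups overlapped (log2 fold change -0.03, SE 0.08, adjusted p = 0.767). Its deposited length is 10725 bp, and after correction its sign turned and it was called higher (0.20, adjusted p = 0.0221 for length, and 0.23, adjusted p = 0.00662 for length and GC). Soat1, which esterifies cholesterol for storage, had 71.4, 59.5 and 76.7 CPM in GOT1-/- and 79.4, 88.8 and 82 CPM in WT (-0.27, SE 0.09, adjusted p = 0.0206). All 3 GOT1-/- values lay below all 3 WT values. The call was lost after either correction (-0.06, adjusted p = 0.621, and -0.01, adjusted p = 0.937) and without GOT1-/- replicate 2 (0.15) or WT replicate 2 (0.109).

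The LXR and efflux genes did not move in 1 direction. Nr1h2, which encodes LXRβ, had 108, 106 and 118 CPM in GOT1-/- and 98.4, 92.9 and 89.7 CPM in WT (log2 fold change 0.24, SE 0.07, adjusted p = 0.0146). The call was lost after either correction (0.14, adjusted p = 0.0907, and 0.01, adjusted p = 0.894) and without WT replicate 2 (0.0583) or WT replicate 3 (0.064). Abca1 (ENSMUSG00000015243; chromosome 4, 53030787 to 53159895, minus strand), the pump that loads cholesterol onto apolipoprotein A1, had 18.7, 15.2 and 11.6 CPM in GOT1-/- and 24.5, 19.5 and 21.9 CPM in WT. The highest GOT1-/- library was below the lowest WT library, and the level was 1.44-fold lower (-0.53, SE 0.14, adjusted p = 0.00481). After either correction the size was -0.31 (adjusted p = 0.0444 for length and 0.0415 for length and GC). Abcg1, which exports cholesterol to high-density lipoprotein, had 58.4, 59.1 and 48.6 CPM in GOT1-/- and 59.7, 63.7 and 57.2 CPM in WT, with overlap (-0.12, SE 0.09, adjusted p = 0.282), and was called lower only after the length and GC correction (-0.22, adjusted p = 0.0303).

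**Figure D4:**
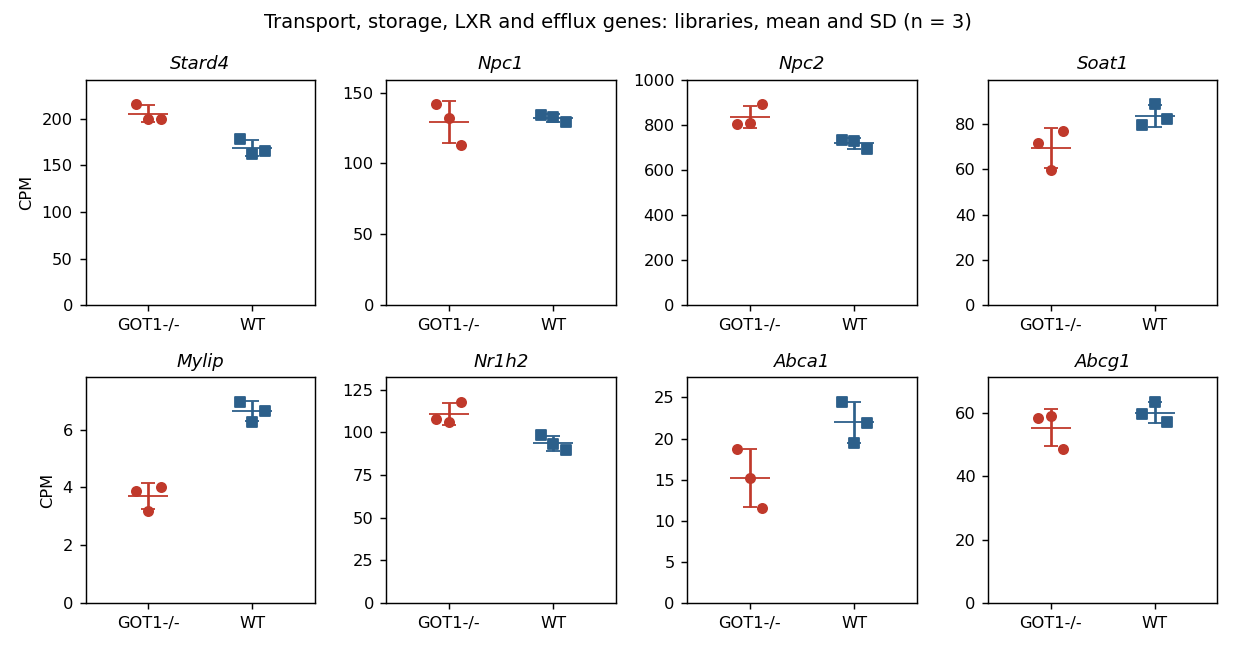
CPM by library of the uptake, transport, storage, LXR and efflux genes, GOT1-/- left of WT, with mean and SD (n = 3), y axes from 0. Mylip and Abca1 lie lower in GOT1-/- without overlap, Stard4 and Npc2 lie higher, and Npc1 and Abcg1 overlap.

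Of the 31 genes, 13 were called in the main comparison and in all 15 alternatives: Acat2, Mvk, Pmvk, Mvd, Fdft1, Lss, Tm7sf2, Scap, Insig2, Stard4 and Npc2, all higher, and Mylip and Abca1, both lower. The calls of Fdps, Nsdhl, Ebp, Nr1h2 and Soat1 were lost under at least 1 alternative. Cyp51, Npc1 and Srebf1 overlap other coding genes on the opposite strand (Akap9 over 166 bp, Rmc1 over 305 bp and Rai1 over 109 bp), so part of their counts is uncertain. Mvd overlaps Gm20388, a coding gene on the opposite strand with a mean count of 0, over 9822 bp. Lss and Hmgcs1 overlap antisense genes over 11268 bp and 6190 bp, with mean counts of 1.3 and 2.7. With the strand setting not given, the counts of Mvd, Lss and Hmgcs1 are uncertain too.

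**Figure D5:**
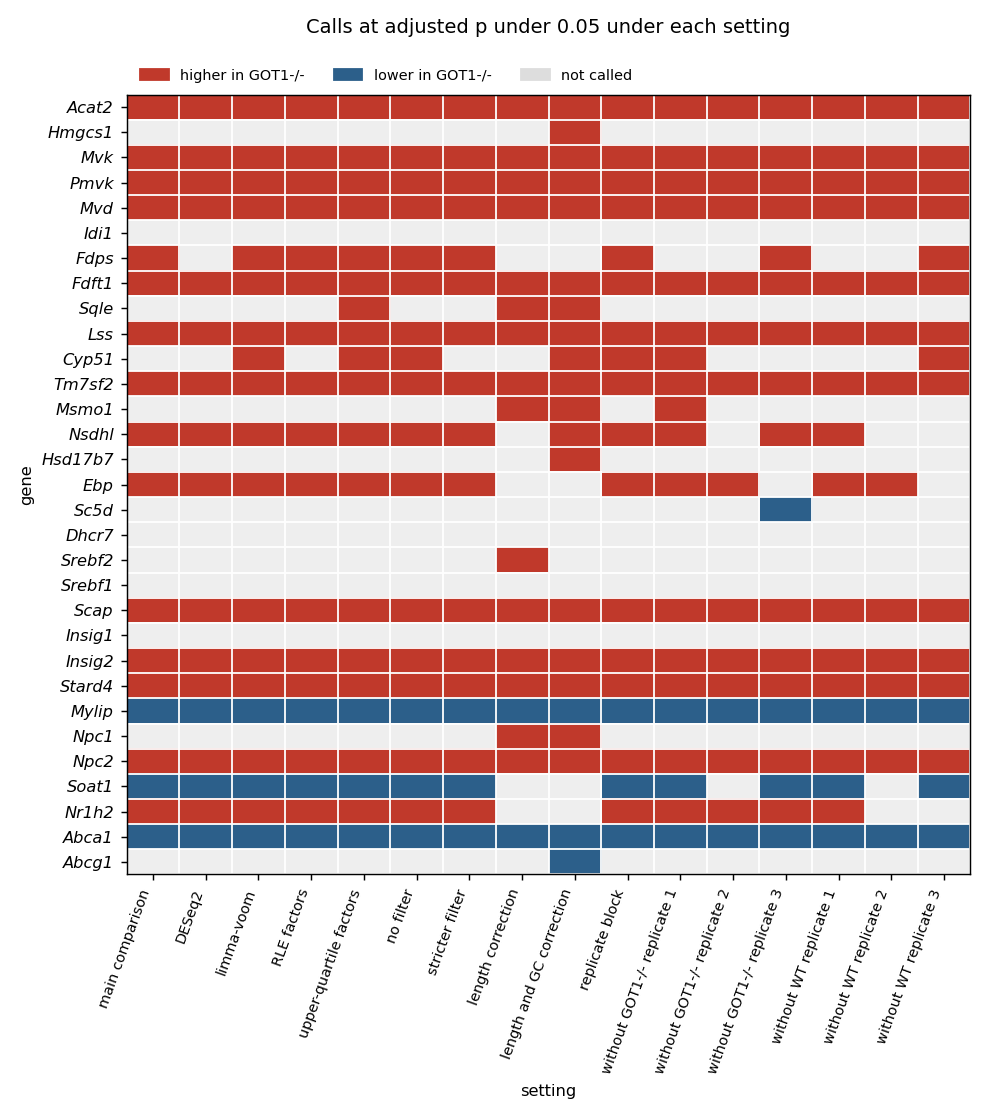
Call of each of the 31 genes (rows, in pathway order) in the main comparison and under 15 alternatives (columns): red is higher in GOT1-/-, blue lower and grey not called. The 13 genes coloured in every column are Acat2, Mvk, Pmvk, Mvd, Fdft1, Lss, Tm7sf2, Scap, Insig2, Stard4, Npc2, Mylip and Abca1.

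The other lists of the pathway were chosen like the members with earlier results known. The isoprenoid branch, which draws on farnesyl diphosphate for ubiquinone, dolichol and protein prenylation, had 6 of 16 genes called higher and none lower, with a median log2 fold change of 0.14. Coq2, which attaches the isoprenoid tail of ubiquinone, had 28.2, 27.8 and 31.8 CPM in GOT1-/- and 19.8, 17.5 and 19.9 CPM in WT (log2 fold change 0.62, SE 0.09, adjusted p = 6.27e-05). Dolk, dolichol kinase, was higher by 0.92 (adjusted p = 0.000163), Pdss1, which builds the ubiquinone tail, by 0.87 (adjusted p = 0.00135), and Icmt, a prenyl protein methyltransferase, by 0.40 (adjusted p = 0.000572). The list had 5 higher and 2 lower after the length correction and also without GOT1-/- replicate 3.

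Of 12 other genes of SREBP processing and sterol-regulated degradation, 1 was higher and 2 lower, with a median of -0.02. Tmem97, a sterol-responsive NPC1 regulator, was higher (0.39, adjusted p = 0.00111), and Mbtps2, the protease that frees SREBP, and Rnf139, a ubiquitin ligase of the endoplasmic reticulum, were lower (-0.29, adjusted p = 0.00675, and -0.28, adjusted p = 0.00889). After the length and GC correction none of these 3 genes was called (Tmem97 had 0.16, adjusted p = 0.0666), and the 1 higher gene of the list was Vcp, named after its values were seen. Without GOT1-/- replicate 2 the call of Rnf139 was lost. Of 16 tested genes of other uptake, transport and ester handling, 4 were higher and 4 lower (median -0.02). Osbpl9, an oxysterol-binding lipid transfer protein gene, had the smallest adjusted p, with 90.8, 90.6 and 96.3 CPM in GOT1-/- and 143, 150 and 164 CPM in WT (-0.72, SE 0.07, adjusted p = 1.08e-06). Lipa, lysosomal acid lipase, was lower (-0.36, adjusted p = 0.00116). Scarb1, the high-density lipoprotein receptor, was higher (0.30, adjusted p = 0.00245). The number of higher genes in this list was 2 in DESeq2 and without GOT1-/- replicate 1 or 2, and 1 without WT replicate 2 or WT replicate 3.

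Of 10 LXR partners and targets, 2 were higher and 4 lower (median 0.02). Rxra, the retinoid partner of LXR, had 66.4, 70.5 and 72.7 CPM in GOT1-/- and 39.8, 42.8 and 36.9 CPM in WT (log2 fold change 0.81, SE 0.08, adjusted p = 9.73e-07). Smpdl3a, an LXR target, had 14.8, 15.2 and 13.5 CPM in GOT1-/- and 27.6, 28.6 and 25.8 CPM in WT (-0.91, SE 0.09, adjusted p = 1.38e-06). Both genes were separate between genotypes. The corepressor gene Ncor1 was lower (-0.60, adjusted p = 0.000179), as was the coactivator gene Ncoa1 (-0.34, adjusted p = 0.00651). The list had 1 higher gene after the length and GC correction (with 3 lower and a median of -0.06) and without GOT1-/- replicate 2, WT replicate 2 or WT replicate 3. Rxrb, the other higher gene, also named after its values were seen, lost its call there and had a log2 fold change of -0.01 after the length and GC correction. Of 8 oxysterol enzyme genes, 3 were tested and none was called by edgeR, DESeq2 or limma-voom, with 0 at an unadjusted p under 0.05 in edgeR; Ch25h and Cyp7b1 had 0 counts in every library, which allows up to 0.182 CPM in the shallowest one.

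The Th17 cytokine genes were measured in the same libraries. Il17a, which encodes the signature cytokine of these cells, had 128, 111 and 129 CPM in GOT1-/- and 75.5, 76.3 and 74.8 CPM in WT (log2 fold change 0.70, SE 0.08, adjusted p = 2.17e-06). Il17f averaged 1011 ± 50.2 CPM in GOT1-/- and 1074 ± 52.7 CPM in WT and was not called (-0.09, adjusted p = 0.311), but was called lower after either correction (-0.26 and -0.15). In the list of 9 Th17 markers 1 was higher and 4 lower, among them Rora (-0.59, adjusted p = 0.00022) and Il23r (-0.86, adjusted p = 0.000754).

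Markers of other cells that could remain in the cultures were counted beside these results. Of 8 tested macrophage, monocyte and neutrophil markers, 5 were higher and 1, Cd68 (-0.83, adjusted p = 2.50e-05), was lower. The 10 markers together summed to 31.3 to 35.3 CPM in GOT1-/- and 26.1 to 28.0 CPM in WT. Lyz2 averaged 12.6 ± 1.69 CPM in GOT1-/- and 4.02 ± 0.769 CPM in WT, called higher by 1.63 on the log2 scale (adjusted p = 7.03e-07). The neutrophil genes S100a8 and S100a9 were low but separate between genotypes. S100a8 had 27, 28 and 17 counts in GOT1-/- and 2, 1 and 3 counts in WT (adjusted p = 3.96e-05). S100a9 had 37, 49 and 21 counts in GOT1-/- and 1, 0 and 2 counts in WT (adjusted p = 5.12e-06). Cd68, which moved the other way, made up 11.1 ± 1.18 CPM of the sum in GOT1-/- and 19.6 ± 2.07 CPM in WT. Dendritic cell markers had 2 of 4 tested genes higher, Batf3 (1.48, adjusted p = 3.02e-08) and Itgax (1.53, adjusted p = 0.000937). The list summed to 25.3 to 29.3 CPM in GOT1-/- and 10.5 to 11.6 CPM in WT, with Clec9a and Siglech at 0 everywhere. Batf3 alone made up 22.7 ± 1.52 CPM of the sum in GOT1-/- and 8.16 ± 0.346 CPM in WT. Zbtb46 (-0.37, adjusted p = 0.391) and Flt3 (0.47, adjusted p = 0.355) were tested and not called. Basophil and mast cell markers had 4 of 6 tested higher, Prss34, Cpa3, Gata2 and Mcpt8, all under 5 CPM, and summed to 25.2 to 27.5 CPM in GOT1-/- and 17.9 to 22.4 CPM in WT. Kit, the most abundant marker of that list, averaged 11.3 ± 1.21 CPM in GOT1-/- and 13.7 ± 1.6 CPM in WT. All its GOT1-/- libraries lay below all WT libraries, and it was not called (-0.29, adjusted p = 0.0639). Hdc was not called either (0.21, adjusted p = 0.478). Markers of CD8 T, NK and gamma-delta T cells had 2 of 6 tested higher, Trdc (0.87) and Tcrg-C1 (1.44), and 1 lower, Klrd1 (-0.56), and summed to 61.3 to 65.9 CPM in GOT1-/- and 72.6 to 79.0 CPM in WT. Of 4 tested B cell markers 0 were called by edgeR, DESeq2 or limma-voom and 1 was lower at an unadjusted p under 0.05 in edgeR, and the list summed to 8.51 to 10.1 CPM in GOT1-/- and 9.28 to 11.3 CPM in WT. The part of these cells in the cholesterol results was not tested.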

How the data were processed

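The authors deposited raw read counts per gene, not normalized, 1 column per library. Per the submitters' processing notes, STAR and build GRCm38 were used. The sources used here do not give the STAR version, the annotation, the counting software or the strand option. Symbols of 27 genes that had become dates were restored from gene IDs, and of 103 repeated symbols the copy with most reads kept the symbol.

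Lowly counted genes were removed with filterByExpr (at least 10 counts, total of at least 15) and compared with edgeR 4.0.16 (R 4.3.3) by a two-sided quasi-likelihood F-test with TMM factors and genotype as the only term, called at a Benjamini-Hochberg adjusted p under 0.05 over 12873 genes. The SE is the log2 fold change divided by the square root of F. The 15 alternatives were DESeq2 1.42.0, limma-voom (limma 3.58.1), other scaling factors and filters, corrections for length and GC content (robust splines, 5 degrees of freedom), the replicate number as a block and each library left out. The test was checked on simulated counts. Members and lists were chosen with earlier results of these data known. All members were named, and of each other list up to 4 called genes with the smallest adjusted p, of which a few are not reported here. Promoters come from RefSeq (GRCm38.p6). No called gene with a promoter window held either searched form of the SRE in it. The rule chosen for printing promoters therefore gave none, and the 4 shown were picked otherwise.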

Additional observations from a re-analysis of the deposited data

How the results depend on the processing

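Of 465 member values recomputed under 15 alternatives, 416 kept direction and side of the threshold, 23 were weaker, 18 stronger and 8 reversed. All 8 reversals were of genes not called in the main comparison. Idi1 reversed to -0.01 after the length correction and ranged from -0.03 to 0.20 with a library left out. Srebf1 was -0.05 after the length and GC correction and ranged from -0.06 to 0.10 with a library left out. Npc1 was 7.3e-05 with upper-quartile factors, 0.20 after the length correction and 0.23 after the length and GC correction, and ranged from -0.11 to 0.05 with a library left out. Synthesis genes called lower numbered 0 to 1 with a library left out, the 1 being Sc5d without GOT1-/- replicate 3. Members called higher numbered 12 to 16 and lower 2 to 4 with a library left out, and 10 and 2 at an adjusted p under 0.01. Among all genes, 2267 to 2944 were higher and 2159 to 2774 lower with a library left out, of 13101 to 13190 tested. At an adjusted p under 0.01, 2088 of all 12873 genes were higher and 1920 lower. With the replicate block, 16 members were higher and 3 lower, against 3005 and 2787 of all 12873 genes. Deviations of same-numbered libraries correlated by -0.0258 to 0.059, and those of differently numbered libraries by -0.103 to 0.0672. Correlations this weak cannot show whether same-numbered libraries were paired. The cause of these changes was not tested. With 3 libraries per genotype and no stated animals, small differences near the threshold, such as those of Fdps, Nsdhl, Ebp, Nr1h2 and Soat1, depend on single libraries or on the correction used.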
